A study of Mus musculus with 6 samples.

Results

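The collagen genes were taken as the genes whose symbol in the platform annotation is Col, a number, a and a number, over probe sets that carry exactly 1 symbol. There were 42 collagen genes, read by 82 probe sets, among 18193 genes. For every gene the probe set with the highest log2 signal, averaged over the arrays, was used, and the other 40 probe sets served as a check. Of the 42 genes, 24 had a mean log2 signal at 0 h at or above the median of all probe sets, which corresponds to a signal of 72.9, and 18 lay below it. Col6a6, Col21a1 and Col28a1 were not analysed here.

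The signals came from primary mouse embryonic fibroblasts (MEFs) with floxed CNOT3 alleles (CNOT3 loxP/loxP). CNOT3 is a subunit of the CCR4-NOT complex, which shortens the poly(A) tail of mRNAs and so starts their decay, and the study asked which mRNAs last longer without it. Control MEFs received a mock retrovirus and CNOT3-depleted MEFs (CNOT3KD in the labels) a Cre retrovirus, followed by 2 days of puromycin selection in both cases. In the labels the genotype of the control is wild type. Cells of both kinds were taken before (0 h) and after 6 or 12 h in actinomycin D (Act. D), a blocker of transcription. Puromycin keeps infected cells, whether or not the floxed alleles recombined, and no source used here gives the strain or age of the embryos. Each of the 6 conditions was measured on 1 array, so that no value below has a replicate, an error or a p-value, and each comparison is between single cultures.

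Collagens are trimers of chains wound into a triple helix, and fibroblasts are among their main producers. Fibrillar collagens form the rope-like fibrils of skin, bone and cartilage, network collagens form sheets such as basement membranes, and other classes sit on the fibrils, tie them to membranes or form fine filaments. The mRNAs of the major fibroblast collagens are abundant and known to be long-lived, and several of them are textbook targets of miR-29, a family of microRNAs that brings the CCR4-NOT complex to its targets. The mature miR-29 sequences (RefSeq, GRCm38.p6) are shown because the family shares 1 seed, bases 2 to 8, given here in capitals.
mmu-miR-29a-3p: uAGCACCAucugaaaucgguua
mmu-miR-29b-3p: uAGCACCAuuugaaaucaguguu
mmu-miR-29c-3p: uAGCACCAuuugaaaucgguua

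At 0 h most collagen genes had similar signals in both cultures, with 3 exceptions above control (Col10a1, Col7a1 and Col27a1) and 2 below it (Col8a1 and Col2a1). In Act. D, the deposited collagen signals mostly climbed in control MEFs and mostly stayed near their 0 h level in CNOT3-depleted MEFs. With the signals as deposited, none of the 24 collagen genes had more of its signal left in CNOT3-depleted MEFs at either time, and by 12 h 16 of them were more than 1.5-fold below control, against 20.2% of all genes. Scaling to ribosomal protein genes left 17 of 24 with less on average and 3 of 24 below control by that size, against 4.76% of all genes. All signals are MAS5 signals that were scaled to nearly the same trimmed mean on each array, between 494 and 497, so that they follow each mRNA as a share of the mRNA on the array and not as an amount per cell. In whole cultures, fewer cells of a type and less RNA per cell cannot be told apart.

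Signals are given below in the order 0, 6 and 12 h of Act. D. Cnot3 itself had control signals of 436, 193 and 198 and CNOT3-depleted signals of 239.6, 128 and 82.9. Its signal was 1.82-fold lower at 0 h. The fibroblast identity in the labels was checked with 10 markers, all of which were at or above the median signal in the mean over both cultures and above background on every array. Their summed control signals were 78352, 105170.0 and 119323, and their summed CNOT3-depleted signals 85381, 83091 and 87817. Dcn, Lum, Thy1, Vim, S100a4 and Fap climbed in control MEFs and ended below control after CNOT3 depletion. Twist1, Pdgfra, Pdgfrb and Prrx1 went the other way. In control MEFs they kept 5.79%, 8.10%, 30.9% and 50.7% of their 0 h signals at 12 h. Their CNOT3-depleted signals were then 14.9-fold, 2.54-fold, 2.97-fold and 1.78-fold of control. Of 8 endothelial markers, Vwf and Tie1 were near background on every array, meaning under the 25th percentile of the array. Kdr and Cldn5 were at or above the median signal, and Cdh5, Tek and Emcn were near background on no array. Epithelial markers summed to 1371, 1403 and 1240.4 in the control arrays and to 2880.3, 3421 and 3406 in the CNOT3-depleted arrays. The higher sums came mainly from Krt18 and Krt19, and 5 of 9 markers were at or above the median signal. Dsp, Krt8, Cdh1 and Krt14 were also higher before Act. D, Cdh1 and Krt14 from near background in control. Epcam and Krt5 were then close to control, at 1.06-fold and 1.04-fold. Cldn4 went the other way and was 7.65-fold lower, near background on the CNOT3-depleted array. The part of other cell types in the results was not tested.

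At 0 h, 3 of the 24 collagen genes (12.5%) were above control by more than 1.5-fold, against 12.4% of all 11062 genes at or above the median. Below it by more than that were 2 of 24 (8.33%), against 6.77% of all genes. These shares lie near the background. The median log2 ratio of CNOT3-depleted over control was 0.04 for the collagen genes and 0.08 for all genes, and the collagen genes ranged from -0.91 to 2.88. Of all genes past 1.5-fold at 0 h, 64.7% were higher as deposited, 76.0% after scaling each array to its median and 65.3% after quantile normalization. The collagen genes split 3 higher to 2 lower as deposited, 4 to 2 after median scaling and 3 to 4 after quantile normalization. These splits rest on too few genes to set the collagen genes apart from all genes.

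**Figure D1:**
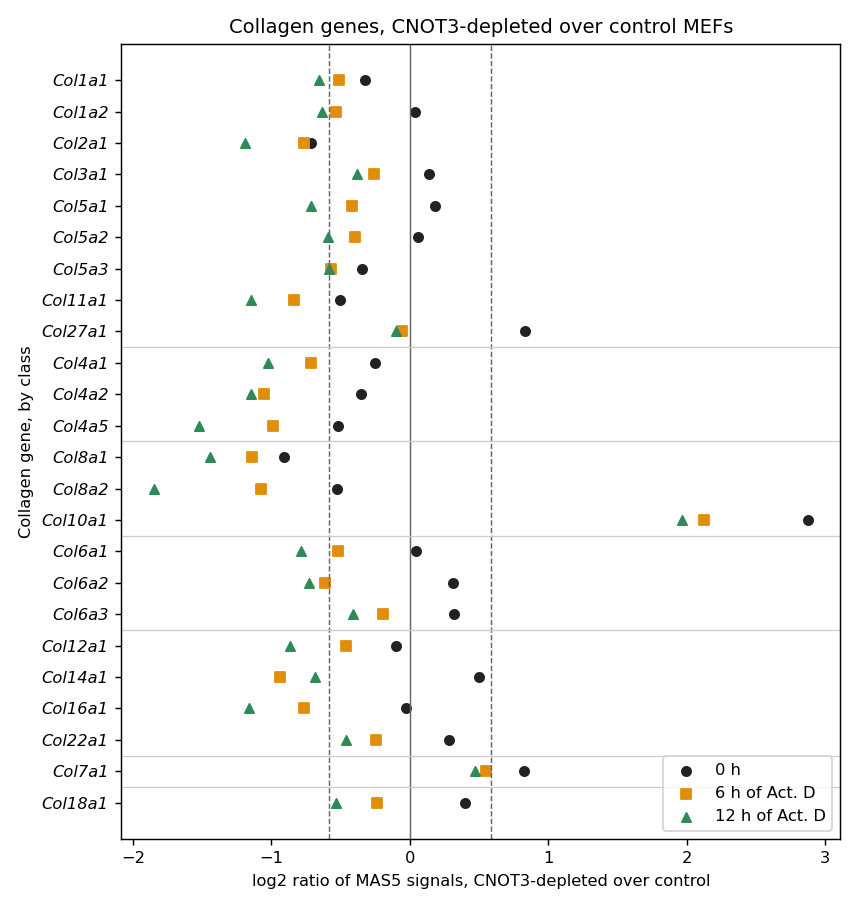
Log2 ratio of MAS5 signals, CNOT3-depleted over control (horizontal axis, as deposited), for the 24 collagen genes at or above the median 0 h signal, ordered by class on the vertical axis and with 1 point per time of Act. D. Dashed lines mark 1.5-fold; 2 genes lie beyond the left line at 0 h and 16 at 12 h (3 with ribosomal protein scaling), while Col10a1 lies far to the right at each time.

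The short-chain collagens form hexagonal networks and hold the extremes in both directions at 0 h among the 24 genes. Col10a1, which encodes the collagen of hypertrophic cartilage, had control signals of 251, 519.8 and 830.3 and CNOT3-depleted signals of 1840.0, 2273 and 3249. Every CNOT3-depleted array lay above every control array, and the ratio was 7.34-fold at 0 h and 3.91-fold at 12 h. Col8a1, a collagen of vessel walls and of the membrane under the corneal endothelium, went the other way, with control signals of 8274, 12509 and 17033 and CNOT3-depleted signals of 4417, 5678 and 6262. All CNOT3-depleted arrays lay below all control arrays, by 1.87-fold at 0 h and 2.72-fold at 12 h. Col8a2, its partner chain, had control signals of 302, 418 and 558 and CNOT3-depleted signals of 211, 199 and 155. It was 1.44-fold lower at 0 h and 3.60-fold lower at 12 h, the largest difference below control at that time among the 24 genes at or above the median.

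Among the 24 genes at or above the median Col10a1 has the largest ratio at 0 h, and its promoter is shown for that reason. The sequence is the 100 bases just before the annotated start on the plus strand (RefSeq, GRCm38.p6, chr10:34389881-34389980), outside the transcribed region, with a TATAAA motif in capitals whose first base is at -32 from the start.
Col10a1 upstream: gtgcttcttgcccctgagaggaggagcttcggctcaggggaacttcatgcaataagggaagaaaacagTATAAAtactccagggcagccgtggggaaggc
The 33 collagen genes matched to RefSeq promoters had 36 promoter windows. TATAAA on either strand within 250 bases before the start was found in 5 of these 36 windows, against 12.4% of 32851 windows of all genes. The 5 windows belong to 5 genes, Col3a1, Col10a1, Col11a2, Col13a1 and Col17a1. CCAAT on either strand was found in 13 of the 36 collagen windows, in 13 of the 33 genes, against 33.8% of all windows. Both collagen shares lie near those of all windows. Of the 5 genes with TATAAA, Col11a2, Col13a1 and Col17a1 were below the median signal, and Col3a1 was 1.10-fold of control at 0 h. These matches describe the letters in the window and not the use of a site.

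The chondrocyte markers were set beside Col10a1 and Col2a1, since both genes are best known from cartilage. Of 10 markers, 5 were at or above the median signal, and they summed to 1056, 1059 and 1337 in the control arrays and to 1478, 1205 and 1087 in the CNOT3-depleted arrays. Acan, the main cartilage proteoglycan, had control signals of 115, 146 and 122 and CNOT3-depleted signals of 162, 169.5 and 126. Sox9, the transcription factor that drives Col2a1 and Acan in cartilage, had control signals of 271, 91.9 and 101 and CNOT3-depleted signals of 524, 246 and 166, 1.93-fold higher at 0 h. At 0 h 7 of the 10 markers were higher in CNOT3-depleted MEFs, as Col10a1 was, and 3 were lower, Snorc by 1.85-fold, Cnmd by 1.15-fold and Matn3 by 1.13-fold, as Col2a1 was. Without Sox9 the marker sum at 0 h was 784 in control and 954 in CNOT3-depleted MEFs. The part of chondrocyte-like cells in these values was not tested.

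Among the fibrillar collagens 9 of 11 genes were at or above the median signal. Col1a1 and Col1a2 encode the chains of type I collagen, the main collagen of skin, bone and tendon. Col1a1 had control signals of 7511, 9532 and 11209 and CNOT3-depleted signals of 6010.4, 6675 and 7132, and Col1a2 had control signals of 23815, 34832 and 40568 and CNOT3-depleted signals of 24404, 24048 and 26188. At 0 h the log2 ratio was -0.32 for Col1a1 and 0.04 for Col1a2, a difference of 0.36 between chains of the same trimer, and neither passed 1.5-fold. By 12 h both were lower than control, by 1.57-fold and 1.55-fold. Col3a1, the homotrimer of type III collagen found with type I in skin and vessels, had control signals of 11084, 15569 and 18194 and CNOT3-depleted signals of 12231, 13032 and 13949. It was 1.30-fold lower at 12 h and passed 1.5-fold at no time.

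Type V collagen starts fibrils and limits their width, and its chains Col5a1 and Col5a2 were close to control at 0 h. Col5a1 had control signals of 12871, 19038 and 23492 and CNOT3-depleted signals of 14607, 14236 and 14324, and Col5a2 had control signals of 19239, 27189.7 and 31823 and CNOT3-depleted signals of 20009, 20674 and 21096. In control MEFs both climbed to 183% and 165% of their 0 h signals at 12 h, and in CNOT3-depleted MEFs they stood at 98.1% and 105%. Col5a3, a type V chain with a narrower distribution, had control signals of 341, 394 and 391 and CNOT3-depleted signals of 269, 266 and 261, and its log2 ratio was -0.35 at 0 h and -0.58 at 12 h.

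The fibrillar collagens of cartilage differed among themselves at 0 h. Col2a1, the main cartilage collagen, had control signals of 1523, 1751 and 2111 and CNOT3-depleted signals of 930.0, 1032 and 928. All its CNOT3-depleted signals lay below all control signals, by 1.64-fold at 0 h and 2.28-fold at 12 h. Col11a1, which shares fibrils with Col2a1 and can also pair with type V chains, had control signals of 3617, 5059 and 6611 and CNOT3-depleted signals of 2555, 2835 and 2989, 1.42-fold lower at 0 h and 2.21-fold lower at 12 h. Col27a1, a fibrillar collagen of developing cartilage, was instead 1.78-fold higher at 0 h, with control signals of 331, 252 and 248 and CNOT3-depleted signals of 590.5, 243 and 232. At this probe set the CNOT3-depleted signals lay just below control at 6 h and 12 h, whereas at its second probe set above the median they lay 2.81-fold and 1.51-fold above it.

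Of the basement membrane collagens 3 of 6 genes were at or above the median. Col4a1 and Col4a2 form the network of nearly all basement membranes, and their RefSeq transcripts start head to head on opposite strands, with annotated first exons that share 22 bases. Col4a1 had control signals of 7174, 10429.8 and 13688 and CNOT3-depleted signals of 6045, 6377 and 6720.2, and Col4a2 had control signals of 3696, 5425 and 6336 and CNOT3-depleted signals of 2902, 2611 and 2860.1. Their log2 ratios at 0 h were -0.25 and -0.35, a difference of 0.10, and both were more than 2-fold lower at 12 h, by 2.04-fold and 2.22-fold. Col4a5, a chain of the kidney filter membrane that is mutated in Alport syndrome, had control signals of 2735, 4829 and 7749.8 and CNOT3-depleted signals of 1914, 2439 and 2703. It was 1.43-fold lower at 0 h, which is short of 1.5-fold, and 2.87-fold lower at 12 h.

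The type VI chains assemble into beaded filaments around cells, and all 3 main chains were well above the median. Col6a1 had control signals of 3368, 5169 and 6688 and CNOT3-depleted signals of 3477, 3602 and 3874, and Col6a2 had control signals of 4137, 7861 and 9182 and CNOT3-depleted signals of 5148, 5152 and 5539.6. Col6a3 had control signals of 10867, 15459 and 17914 and CNOT3-depleted signals of 13546, 13556 and 13512. At 0 h the CNOT3-depleted signals were higher by 1.03-fold, 1.24-fold and 1.25-fold, all short of 1.5-fold, and Col6a1 and Col6a2 but not Col6a3 were more than 1.5-fold lower at 12 h.

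The fibril-associated collagens sit on the surface of fibrils, and 4 of 9 were at or above the median. Col12a1, which binds type I fibrils, had control signals of 8271, 13359 and 16478 and CNOT3-depleted signals of 7708, 9694 and 9043. Col14a1, its close relative, had control signals of 97.2, 169 and 230.1 and CNOT3-depleted signals of 138, 88.0 and 143. Its CNOT3-depleted signal was 1.41-fold of control at 0 h and 1.61-fold below it at 12 h. Col16a1, a minor component of fibrils and filaments, had control signals of 1074, 1516 and 1856 and CNOT3-depleted signals of 1054, 893 and 829, and the cultures differed by 1.02-fold at 0 h and by 2.24-fold at 12 h. Col22a1, a collagen of tissue junctions such as that of muscle and tendon, was close to the median, with control signals of 75.9, 90.7 and 101 and CNOT3-depleted signals of 92.3, 76.7 and 73.9.

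The anchoring fibril class has 1 gene, and of the 2 multiplexins 1 was at or above the median. Col7a1, the anchoring fibril collagen that ties the epidermis to the dermis, had control signals of 679, 618 and 664 and CNOT3-depleted signals of 1202, 904 and 919. Its CNOT3-depleted signals lay above control on every array, by 1.77-fold at 0 h and 1.38-fold at 12 h. Col18a1, a basement membrane collagen whose end fragment is endostatin, had control signals of 469, 818 and 1087 and CNOT3-depleted signals of 621, 693 and 753. It was 1.32-fold of control at 0 h and 1.44-fold below control at 12 h.

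**Figure D2:**
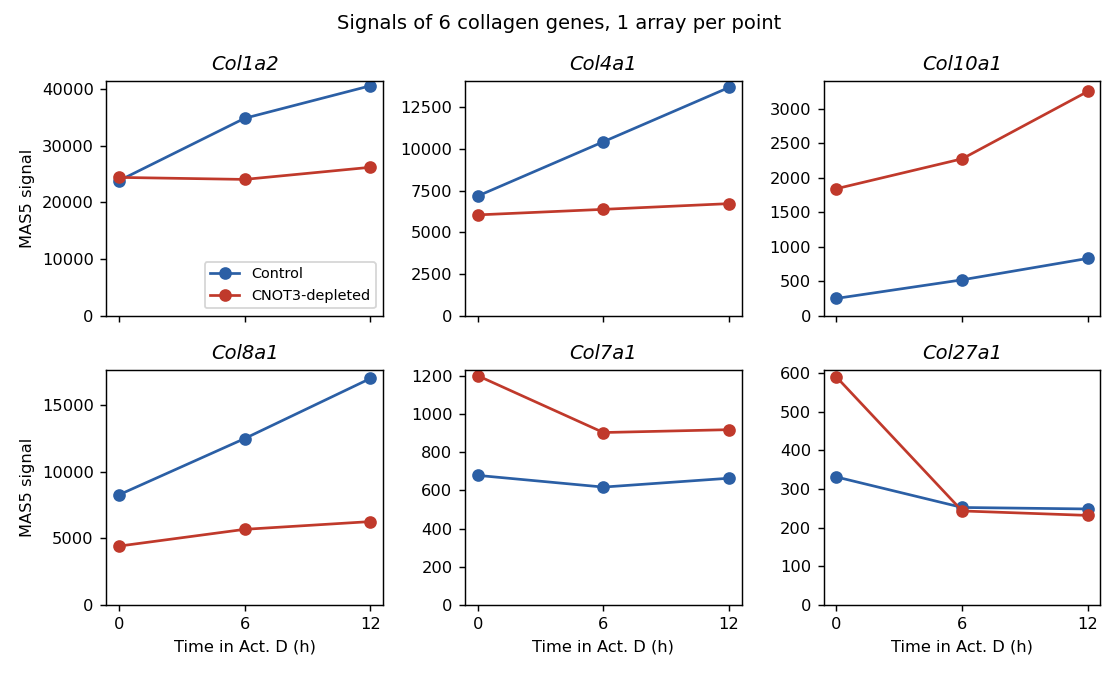
MAS5 signal (vertical axis, from 0) against time in Act. D in hours (horizontal axis) for 6 collagen genes, with 1 array per point, as deposited. Col1a2, Col4a1 and Col8a1 climb more in control than in CNOT3-depleted MEFs, where Col8a1 still reaches 142% of its 0 h signal, Col10a1 and Col7a1 are above control at each time, and Col27a1, at its brightest probe set, starts above control and drops to it by 6 h (a second probe set stays above control).

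During Act. D the CNOT3-depleted over control ratio went down for all 24 collagen genes as deposited, and on average for 17 of 24 with ribosomal protein scaling. At 6 h 10 of 24 collagen genes (41.7%) were more than 1.5-fold lower in CNOT3-depleted MEFs, against 11.9% of all genes, and at 12 h 16 of 24 (66.7%), against 20.2%. More than 1.5-fold higher were 1 of 24 at each time, Col10a1, against 33.9% of all genes at 6 h and 40.2% at 12 h. The 10 genes at 6 h were Col2a1, Col4a1, Col4a2, Col4a5, Col6a2, Col8a1, Col8a2, Col11a1, Col14a1 and Col16a1, and at 12 h they were joined by Col1a1, Col1a2, Col5a1, Col5a2, Col6a1 and Col12a1. Scaling changes these counts. At 6 h the count was 1 of 24 with ribosomal protein scaling, against 2.89% of all genes. After median scaling 8 of 24 were lower at 12 h, against 10.97% of all genes, and after scaling to ribosomal protein genes 3 of 24 were, against 4.76%.

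The signal left is the signal in Act. D as a percentage of the same culture's 0 h signal. The median over the collagen genes was 144% in control MEFs after 6 h and 178% after 12 h, whereas CNOT3-depleted MEFs had 102% and 106%. With ribosomal protein scaling these medians were 95.4% and 100.1% in control and 91.3% and 90.1% in CNOT3-depleted MEFs. Over all genes the control medians were 87.0% and 72.8%, and the CNOT3-depleted medians 97.6% and 95.1%. At each time 22 of 24 collagen genes were above 100% in control MEFs, all but Col7a1 and Col27a1, and 14 of 24 were in CNOT3-depleted MEFs. Among all genes 38.6% in control and 44.9% in CNOT3-depleted MEFs were above 100% at 12 h. These shares rose with signal. With a 0 h signal from 4096 to 8192 they were 60.2% and 77.4%, and from 8192 up 83.4% and 86.8%. The 82 collagen probe sets made up 0.521, 0.640 and 0.718% of the summed signal of the control arrays at 0, 6 and 12 h and 0.499, 0.499 and 0.513% of that of the CNOT3-depleted arrays.

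**Figure D3:**
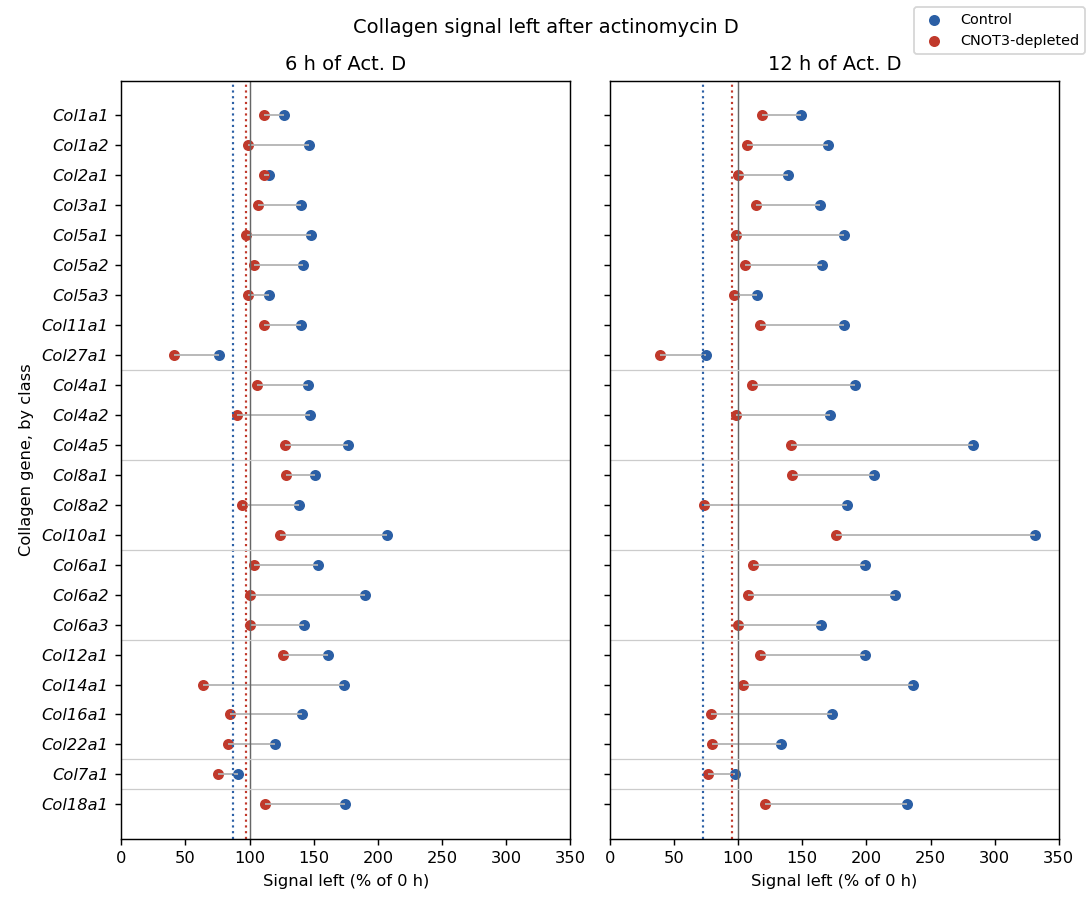
Signal left after 6 h (left panel) and after 12 h of Act. D (right panel) as a percentage of the 0 h signal (horizontal axis) for the 24 collagen genes by class (vertical axis), as deposited; dotted lines are the medians of all genes in each culture. The control point lies to the right of the CNOT3-depleted point for every gene at both times, an order that some genes lose under ribosomal protein scaling (17 of 24 keep a mean stabilization below 0) or quantile normalization (22 of 24).

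Stabilization was computed on the log2 scale as the CNOT3-depleted over the control fraction of signal left, averaged over both times. Its median was -0.63 for the collagen genes, with a range of -1.31 to -0.23, and 0.13 for all genes. It was below 0 for 24 of 24 collagen genes and for 44.1% of all genes as deposited, but for 17 of 24 after ribosomal protein scaling and 22 of 24 after quantile normalization. The median of all genes itself moved from 0.13 as deposited to 0.65 under ribosomal protein scaling and -0.01 under quantile normalization, whereas the position relative to all genes is not altered by a factor per array. The collagen median lay 0.76 below that of all genes as deposited and with ribosomal protein or median scaling, 0.50 below with quantile normalization and 0.68 below when each gene was read as the median of all its probe sets. As deposited, the median collagen gene was at percentile 11.1 of all genes, and 20 of 24 were under the 25th percentile. With quantile normalization the median collagen gene was at percentile 22.4, and 13 of 24 were under the 25th.

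None of the 24 collagen genes had at least 1.5 times more of its signal left in CNOT3-depleted MEFs at both times, against 22.5% of all genes. The stricter 2-fold rule, in which the CNOT3-depleted signal also stays within 2-fold of its start at 6 h, counted 0 of 24, against 10.6%. In the other direction 8 of 24 (33.3%) had at least 1.5 times more left in control MEFs at both times, against 5.75%. These were Col4a2, Col5a1, Col6a2, Col10a1, Col14a1, Col16a1, Col18a1 and Col27a1, each read at its brightest probe set. At its second probe set Col27a1 did not reach this size and had a stabilization of 0.27. With ribosomal protein scaling 1 of 24 met that rule, against 0.741% of all genes. The count was 10 with median scaling, against 6.51%, and 9 with quantile normalization, against 11.8%.

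By class, the median stabilization was -0.49 for the 9 fibrillar genes, -0.74 for the 3 basement membrane genes, -0.83 for the 3 short-chain genes, -0.70 for the 3 type VI genes and -0.78 for the 4 fibril-associated genes. Within the fibrillar class Col5a3 (-0.23), Col1a1 (-0.26) and Col2a1 (-0.26) were nearest to 0, and Col27a1 (-0.91) and Col5a1 (-0.75) farthest. The value of Col27a1 depends on the probe set and was 0.27 at its second one. Chains that assemble together can be set side by side. Col4a1 and Col4a2 differed by 0.13, Col6a1 and Col6a3 by 0.08, Col6a1 and Col6a2 by 0.28, Col5a1 and Col5a2 by 0.20 and Col1a1 and Col1a2 by 0.36, on the log2 stabilization scale. Col8a1 and Col8a2 were farther apart, at 0.55.

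The genes at the extremes got there in different ways. Col14a1 had the lowest stabilization of the 24 genes, -1.31, at percentile 0.967 of all genes, with 174% and 237% left in control MEFs after 6 h and 12 h, and 64.0% and 104% in the other culture. Its signals were close to the median. Col10a1 was above its start in both cultures, at 207% and 331% in control and 124% and 177% in CNOT3-depleted MEFs. Its higher level at 0 h came with a smaller relative gain in Act. D. Col27a1 at its brightest probe set went down in both cultures, with 76.1% and 74.98% left in control and 41.2% and 39.2% in CNOT3-depleted MEFs. A second probe set above the median also went down in both, but had a stabilization of 0.27. Col7a1 had 91.0% and 97.8% left in control, and 75.2% and 76.4% in CNOT3-depleted MEFs.

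Signal level moves with these values. Over all genes with a 0 h signal of at least 1000, the median stabilization was 0.07, and over the 16 collagen genes among them it was -0.62. Among the 439 brightest genes, with a signal of 8192 or more, it was -0.49, with 148% and 172% left in control MEFs, and 112% and 117% left after CNOT3 depletion. The 5 collagen genes in that range had a median of -0.62, close to its other genes. At 12 h 3 of these 5 were more than 1.5-fold lower than control, against 49.0% of the 439 genes. Between 4096 and 8192 the median of all genes was -0.14 and that of the 5 collagen genes -0.56. The 8 collagen genes under 1000 had a median of -0.81. The part of signal level in these values was not tested.

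**Figure D4:**
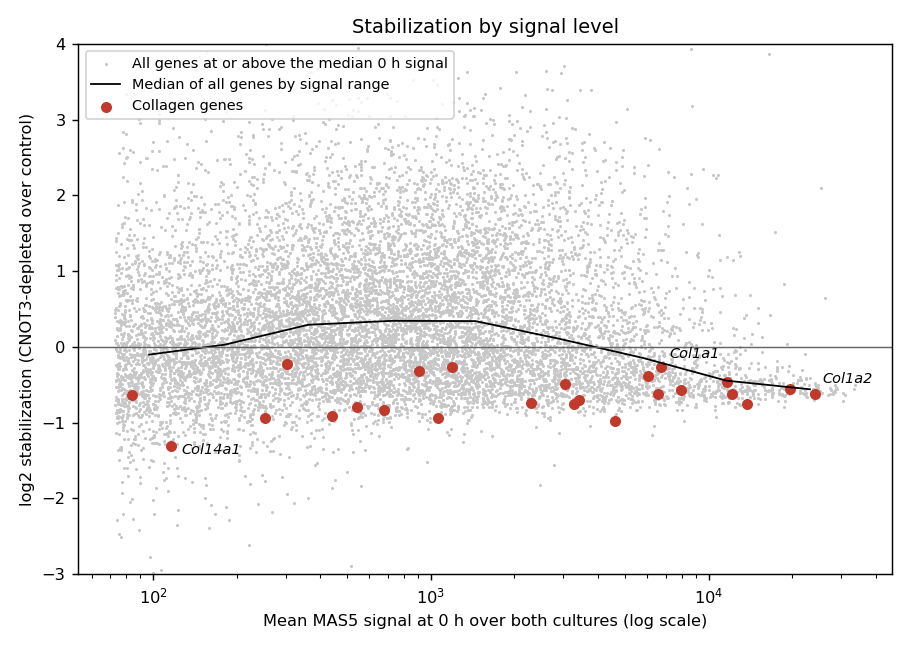
Log2 stabilization (vertical axis, as deposited) against the mean MAS5 signal at 0 h over both cultures (horizontal log axis) for the 11062 genes at or above the median (grey; 21 lie outside the axis) and the 24 collagen genes (red), with the median of all genes by signal range as a line. The collagen genes lie below the line over most of the range and meet it at the brightest signals; all 24 lie below 0 as deposited, 17 after ribosomal protein scaling and 22 after quantile normalization.

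The miR-29 seed printed above is known to match sites in Col1a1, Col1a2, Col3a1, Col4a1 and Col4a2, a list drawn up after the values had been seen. Their median log2 ratio at 0 h was -0.25, against 0.08 for all genes, and none passed 1.5-fold. Their median stabilization was -0.62, against -0.63 for the 24 collagen genes, and 4 of 5, all but Col3a1, were more than 1.5-fold lower than control at 12 h, against 20.2% of all genes and 66.7% of the collagen genes. With quantile normalization the median stabilization of these 5 was -0.03 and 2 were lower at 12 h, and with ribosomal protein scaling the median was -0.11 and 0 were lower.

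Other probe sets of the same genes gave mostly the same picture. Of the 40, 16 were at or above the median, in 13 genes, and 15 of these had a stabilization of the same sign as the brightest probe set. The median difference between them was 0.18 and the largest 1.18 on the log2 stabilization scale. The exception was a second probe set of Col27a1, with a signal of 200.3 in control MEFs, against 341 in CNOT3-depleted MEFs, at 0 h, higher in the latter as at the brightest one, and 27.4% and 62.0% left in control and 45.1% and 54.8% in CNOT3-depleted MEFs, for a stabilization of 0.27. One probe set annotated to Col1a2 behaved unlike the other probe sets of that gene, with control signals of 730.1, 48.6 and 86.1 and CNOT3-depleted signals of 499.5, 26.1 and 42.1. It kept 6.66% and 11.8% of its signal in control and 5.22% and 8.42% in CNOT3-depleted MEFs, while the brightest probe set stood at 146% and 170.3% in control and at 98.5% and 107% in CNOT3-depleted MEFs. Col22a1 was -0.63 at its brightest probe set and 0.06 and 0.61 at its other probe sets, which were below the median signal. It was 1.53 when the median signal of its probe sets was taken on each array. That value mixes different dim probe sets and was reached by none of them. No source used here gives the place of these probe sets in the transcripts.

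The 18 collagen genes below the median comprised 5 fibril-associated genes (Col9a1, Col9a2, Col9a3, Col19a1 and Col20a1), 4 transmembrane genes (Col13a1, Col17a1, Col23a1 and Col25a1), 3 basement membrane genes (Col4a3, Col4a4 and Col4a6), 3 genes of the beaded filament and related class (Col6a4, Col6a5 and Col26a1), the fibrillar genes Col11a2 and Col24a1 and the multiplexin Col15a1. The highest signal of any of them was 168, of Col4a6. Col17a1, a hemidesmosome collagen of keratinocytes, was near background on all 6 arrays, 12 genes were so on some arrays, and 6 were so in both cultures at 0 h. None passed 3-fold at 0 h with its brighter side at or above the median of that array. Past 1.5-fold at 0 h were 9 lower and 3 higher, most of them with a side near background. The share of all genes below the median past that size was not counted, so none stands beside these counts. Of the lower genes, Col4a6 was 2.82-fold and Col19a1 2.46-fold below control, and neither was near background on any array. Col20a1 and Col23a1 were at least 3.22-fold and at least 3.20-fold higher in CNOT3-depleted MEFs against the 25th percentile of the control array, at signals of 63.7 and 63.3, while 2 of the 3 dimmer Col20a1 probe sets were below control, at 0.812-fold and 0.381-fold. The dimmer Col23a1 probe sets stood at 0.964-fold and 2.00-fold of control. At 6 h the brightest Col23a1 probe set was 1.70-fold below control. These 4 genes were named after their values were seen.

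The genes that modify, secrete, assemble, bind and regulate collagen were read from 5 lists, and ribosomal protein scaling adds 0.51 to every stabilization given for them. The shares of all genes to set beside their counts are 12.4% higher and 6.77% lower at 0 h and 20.2% lower at 12 h as deposited, and 10.97% and 4.76% lower at 12 h with median and ribosomal protein scaling. Of 18 modifying enzymes and chaperones at or above the median signal, 2 were higher and 0 lower at 0 h, 11 were lower at 12 h (7 with median and 1 with ribosomal protein scaling), and the median stabilization was -0.56. P3h2, a prolyl 3-hydroxylase, had control signals of 85.5, 156 and 287 and CNOT3-depleted signals of 154, 189 and 219, 1.80-fold higher at 0 h. Plod1, a lysyl hydroxylase, was 1.51-fold higher at 0 h, whereas P4ha3, a prolyl 4-hydroxylase subunit, was 1.41-fold lower. P3h3 had a stabilization of -0.85. Creb3l1, a membrane-bound transcription factor that promotes collagen secretion and Col1a1 transcription, was the 1 member of 18 above 0 as deposited, at 0.99, whereas 8 were with ribosomal protein scaling and 2 with quantile normalization. It had control signals of 524, 334 and 155 and CNOT3-depleted signals of 558, 442 and 521, which left 29.5% at 12 h in control MEFs, against 93.3% in CNOT3-depleted MEFs.

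Of 9 proteinases and crosslinking enzymes at or above the median, 0 were higher and 1 lower at 0 h, 7 were lower at 12 h (4 with median and 1 with ribosomal protein scaling, against 20.2%, 10.97% and 4.76% of all genes), and the median stabilization was -0.53, or -0.10 with quantile normalization. The lower gene was Tll1, a procollagen C-proteinase, with control signals of 3178, 4547 and 5441 and CNOT3-depleted signals of 1303, 1758 and 1275, 2.44-fold lower at 0 h. Bmp1, the main enzyme of that kind, had a stabilization of -0.89, Lox, which crosslinks fibrils, -0.60, the enhancer Pcolce2 -0.73 and the transglutaminase Tgm2 -0.53. Of 5 collagen receptors, 1 was higher at 0 h, 2 were lower at 12 h (0 with ribosomal protein scaling), and the median stabilization was -0.60. The higher gene was Itga1, the alpha chain of a collagen-binding integrin, with control signals of 132, 234 and 292 and CNOT3-depleted signals of 295, 258 and 441, 2.24-fold higher at 0 h. Stabilization was -0.60 for its partner Itgb1, -0.78 for Mrc2, which takes collagen into the cell, and -0.40 for the receptor kinase Ddr1.

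Of 13 proteoglycans and fibril partners, 5 were higher and 0 lower at 0 h, against 12.4% and 6.77% of all genes, 5 were lower at 12 h (3 with median and 0 with ribosomal protein scaling), against 20.2%, and the median stabilization was -0.68. Omd, the small proteoglycan osteomodulin, had control signals of 264, 477 and 1027 and CNOT3-depleted signals of 839, 1101 and 1758, 3.18-fold higher at 0 h. Ogn, its relative osteoglycin, had control signals of 4537, 10558 and 18418 and CNOT3-depleted signals of 8956, 11743 and 15146, 1.97-fold higher at 0 h. Thbs2, a thrombospondin needed for normal fibrils, was 1.62-fold higher, the fibril-binding proteoglycan Prelp 1.59-fold and Postn, which encodes the matrix protein periostin, 1.58-fold. Fmod, which binds type I fibrils, was 1.35-fold of control with a stabilization of -0.92.

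The 11 regulators of collagen transcription, among which Creb3l1 counts again, had a median stabilization of 0.22 as deposited and -0.10 with quantile normalization, with 4 counted by the 2-fold rule, against 10.6% of all genes and 0 of the 24 collagen genes. Ccn2, a secreted factor induced by TGF-beta, had control signals of 24446, 7958 and 2594 and CNOT3-depleted signals of 26172, 21255 and 20386. By 12 h it had 10.6% left in control MEFs, against 77.9% in CNOT3-depleted MEFs, a stabilization of 2.10. Smad3, which carries the TGF-beta signal to collagen promoters, had a stabilization of 1.97, and Sp1, a factor that binds GC-rich promoters such as that of Col1a1, 1.91. The remaining gene of the 4 was Smad4, the partner of Smad3, at 1.88. At 0 h none of these was more than 1.5-fold from control. Sox9 was the 1 regulator past 1.5-fold at 0 h, and Sox5, its partner in cartilage, was 1.33-fold lower with a stabilization of -0.43. For Sox5 this averages 0.34 at 6 h and -1.21 at 12 h. Its signals in Act. D were low, 29.7 and 44.6 in control and 28.1 and 14.5 in CNOT3-depleted MEFs. The difference between the regulators and the collagen genes was not tested.

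**Figure D5:**
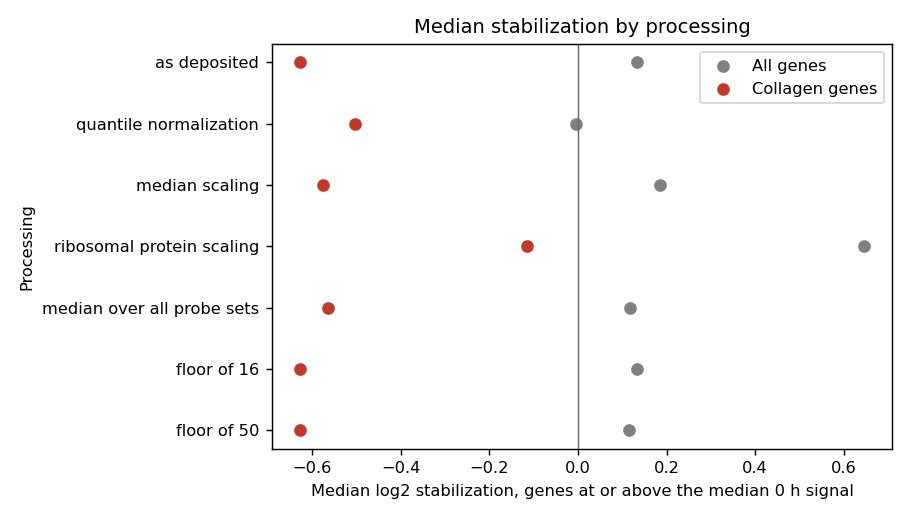
Median log2 stabilization (horizontal axis) of the collagen genes (red) and of all genes at or above the median 0 h signal (grey) under 7 ways of processing (vertical axis). The collagen median lies below 0 and below that of all genes in each, between -0.63 and -0.12, and 7 of 24 collagen genes lie above 0 with ribosomal protein scaling and 2 of 24 with quantile normalization.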

How the data were processed

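Total RNA of 6 cultures of primary MEFs was hybridized to Affymetrix mouse 430 arrays, 1 per condition. The authors deposited intensity values per probe set, computed with MAS5 per the labels, on a linear scale. No source used here states the MAS5 version or its scaling target. The trimmed means of the arrays were nearly equal, so all values are relative to the RNA that remained, and an mRNA that decays more slowly than the rest gains signal in Act. D.

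Of 45037 probe sets, 34945 carried 1 symbol, 932 several and 9160 none in the platform annotation, and those with 1 symbol were used. Signals under 1 were set to 1, and no other scaling was applied. Genes counted were the 11062 at or above the median mean log2 signal at 0 h. Folds were counted past 1.5-fold, in both directions and at each time. The study's results used that size only for genes higher in CNOT3-depleted MEFs without Act. D. The 2-fold rule asks for a CNOT3KD ratio of 6 h to 0 h between 0.5 and 2 and at least 2 times the control fraction left at both times. A signal was near background where it lay under its array's 25th percentile. The number of arrays limits the precision, and with 1 array per condition no test was run.

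The collagen genes, the class, pathway and marker lists and the rules were chosen with earlier results of these data known. All collagen genes at or above the median are given with their signals. In each pathway list the 3 members with the largest fold and the 3 with the largest stabilization, in either direction, are named. Alternatives were quantile normalization, scaling to the array median or to 42 ribosomal protein genes, the median over all probe sets of a gene, a floor of 16 or 50, no filter on low signals and 2-fold in place of 1.5-fold. Sequences came from RefSeq (GRCm38.p6), and 33 of 42 collagen genes had a promoter there. The code for the counts was run on simulated data with large planted changes and little noise, which does not measure the error of the counts given here. Python 3.11.15, numpy 2.4.6 and pandas 2.3.3 were used.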

Additional observations from a re-analysis of the deposited data

Results flagged for a closer look

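For 6 of the 24 collagen genes at or above the median, the signal moved in opposite directions in the cultures, as deposited. It was above 100% of the 0 h level at both times in control MEFs and below it at both times in CNOT3-depleted MEFs. Of these 6 genes, 3 did so with quantile normalization and 0 with median or ribosomal protein scaling, where 0 stayed below 100% in CNOT3-depleted MEFs and 0 stayed above 100% in control MEFs at both times, respectively. At 12 h the CNOT3-depleted culture had 98.6% left of Col4a2, 98.1% of Col5a1, 97.0% of Col5a3, 73.6% of Col8a2, 78.7% of Col16a1 and 80.0% of Col22a1. Col4a2, Col5a1 and Col5a3 lay within a few percent of their start, and Col8a2, Col16a1 and Col22a1 lay lower. The differences between the cultures were not tested, since each condition has 1 array. The share of all genes above 100% in control and below it in CNOT3-depleted MEFs at both times was not counted.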

How the results depend on the processing

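No paired analysis was possible because each condition has 1 array and the labels carry no replicate numbers, and for the same reason no array could be left out in turn. Collagen genes more than 1.5-fold higher at 0 h numbered 3, against 1 at 2-fold and 6 with no filter. Those lower at 0 h numbered 2, against 0 at 2-fold, 4 with quantile normalization and 11 with no filter. Those lower at 6 h numbered 10, against 3 at 2-fold, 1 with ribosomal protein scaling and 17 with no filter. Those lower at 12 h numbered 16, against 8 at 2-fold, 8 with median scaling, 3 with ribosomal protein scaling and 25 with no filter. Those with at least 1.5 times more left in control MEFs numbered 8, against 1 at 2-fold. With ribosomal protein scaling they numbered 1, against 0.741% of all genes. Those with at least 1.5 times more left in CNOT3-depleted MEFs numbered 0, against 2 with no filter. These were Col6a4 and Col6a5, both near background in CNOT3-depleted MEFs at 0 h. No share of all genes is given here beside the counts with no filter or at 2-fold. The median log2 ratio at 0 h went from 0.04 to -0.12 when each gene was the median of all its probe sets and to -0.071 with no filter. The median stabilization went from -0.63 to -0.50 with quantile normalization and -0.12 with ribosomal protein scaling. The median signal left in control MEFs, 144% at 6 h and 178% at 12 h, became 125% and 148% with quantile normalization, 203% and 221% with median scaling and 95.4% and 100.1% with ribosomal protein scaling. In CNOT3-depleted MEFs, 102% and 106% became 134% and 152% with median scaling and 91.3% and 90.1% with ribosomal protein scaling, and 12 h became 98.6% with quantile normalization. Col22a1 had a stabilization of 1.53 from the median signal of its probe sets on each array, a value that no single probe set reached. It was -0.63 at its brightest one. Of 144 alternative values of single collagen genes at 0 h, 142 moved by less than 1.5-fold, 2 by more and 0 changed the sign of a called value, and of 144 alternative values of stabilization 139 moved by less and 5 by more. Of the latter 144, 10 changed sign, 7 with ribosomal protein scaling, which adds 0.51 to each, 2 with quantile normalization and 1 as the median of all probe sets. The counts at 6 h and 12 h and the values of genes with signals of at least 1000 were added after seeing the data. The cause of these differences was not tested.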

Other observations

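Of the osteoblast markers, 1 of 5 were at or above the median signal, and at 0, 6 and 12 h they summed to 288, 265 and 421 in the control arrays and to 288, 298 and 251 in the CNOT3-depleted arrays. Endothelial markers (2 of 8) summed to 344, 458 and 403 in the control arrays and to 312, 404 and 344 in the CNOT3-depleted arrays. Leukocyte markers (6 of 9) summed to 2368, 4195 and 4922 in the control arrays and to 3515, 4048 and 4889 in the CNOT3-depleted arrays, led by Lyz2, a macrophage lysozyme, with control signals of 1157, 2319.6 and 2976 and CNOT3-depleted signals of 1728, 2310.2 and 3008. Skeletal muscle markers (3 of 7) summed to 3739.8, 4579 and 5389.6 in the control arrays and to 6526, 7028 and 7333 in the CNOT3-depleted arrays, most of it Acta1, skeletal actin, with control signals of 3337, 4111 and 4775 and CNOT3-depleted signals of 6105, 6525 and 6889. At 0 h Acta1, Des, Myod1 and Myog were higher in CNOT3-depleted MEFs, and Ckm, Myh3 and Tnnt3 were lower. Of the lower ones, Myh3 and Tnnt3 were near background in CNOT3-depleted MEFs at 0 h. Neural markers (4 of 6) summed to 1825, 1896 and 1943 in the control arrays and to 1833, 1942 and 1606 in the CNOT3-depleted arrays. The near-equal sums at 0 h hold opposite changes. Tubb3 and Map2 were 1.76-fold and 1.15-fold higher in CNOT3-depleted MEFs, and Nes and Sox2 1.85-fold and 1.84-fold lower. Gfap and Snap25, both below the median signal, were also lower. The part of these cells in the collagen values was not tested.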
